A study of Mus musculus with 16 samples.

Results

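The genes examined were 9 apolipoprotein genes and Mttp, which together encode most of the protein of the lipoproteins that the liver secretes and the transfer protein that loads them with lipid. They were Apoa1, Apoa2, Apoa4, Apoa5, Apob, Apoc1, Apoc2, Apoc3, Apoe and Mttp, chosen by symbol through their Ensembl IDs. All 10 were found among the 46078 genes of the count table, and all 10 were among the 15075 that passed the filter on low counts. Liver mRNA was sequenced in 16 libraries, 4 in each of 4 groups, from mice labelled C56B6/J, written C57BL6/J and male in the study, whose methods give an age of 8 weeks at the start of the diets. The groups were CD fed (control diet, food at will), CD fast (control diet, 16 h without food), HFD fed (high-fat diet, food at will) and HFD fast (high-fat diet, 16 h without food). The high-fat diet gave 60% of energy as fat, and all groups were labelled with 16 weeks on their diet, with no allele or further treatment named. Fasting was compared within each diet and diet within each feeding state, and the interaction asked whether the response to fasting differed between the diets.

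Apolipoproteins are the proteins on the surface of lipoproteins, the particles that carry triglyceride and cholesterol in blood. In hepatocytes each very-low-density lipoprotein (VLDL) is built on a single molecule of APOB while MTTP passes lipid to it in the endoplasmic reticulum. APOA1 and APOA2 are the main proteins of high-density lipoprotein (HDL), the C group and APOA5 set how fast lipoprotein lipase removes triglyceride, and APOE binds the receptors that clear remnants. Apoa1, Apoc3, Apoa4 and Apoa5 lie within 43.34 kb of chromosome 9, and Apoc2, Apoc1 and Apoe within 27.61 kb of chromosome 7 (GRCm38).

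Total counts per library ranged from 41364448 to 57583153, and each member had at least 6732 counts in every library. Abundance is given as CPM, counts relative to the scaled library total, after TMM scaling, with the SD over n = 4 libraries. Log2 fold changes come from edgeR's quasi-likelihood test over all genes, with Benjamini-Hochberg adjusted p, and a gene is said to rise or fall where that p was below 0.05. The labels give each library a number but do not say that each came from a separate mouse, so the tests measure the spread between these libraries. In whole liver, fewer cells of a type and less RNA per cell cannot be told apart. The 8 hepatocyte markers were high in every library, with a summed level of 112050 to 137395 CPM fed and 89016 to 117252 CPM fasted on the control diet (2 called lower and 1 higher), and of 115823 to 139243 CPM fed and 79805 to 115059 CPM fasted on the high-fat diet (1 called lower). Of the 10 enterocyte markers 4, among them Sis and Cdx2, had at most 3 counts in every library, and 2 others, Fabp2 and Anpep, made up most of the list and were called higher in fasting. Those 10 summed to 186 to 218 CPM for CD fed, 312 to 420.0 for CD fast, 218 to 244 for HFD fed and 269 to 366 for HFD fast. The 13 Kupffer cell and macrophage markers summed to 359 to 721 CPM for CD fed against 255 to 395 for CD fast, where 4 of them fell. Of 6 sinusoidal endothelial markers 3 fell with fasting on the control diet and 3 rose with the high-fat diet in fasted livers. The 8 stellate cell markers summed to 238 to 314 CPM in fed and 148 to 242 CPM in fasted livers on the control diet, with 1 called lower, and to 249 to 417 CPM for HFD fast, with 1 called higher than on the control diet. Of the erythrocyte and the pancreatic acinar markers 1 each was called lower with fasting on both diets, and 1 erythrocyte marker was called higher with the high-fat diet in fasted livers. The 6 adipocyte markers summed to 4.10 to 19.1 CPM fed and 72.0 to 264 CPM fasted on the control diet, and to 9.57 to 63.4 and 98.1 to 174 CPM on the high-fat diet. Nearly all of that was Cidec, called higher with fasting on both diets, while Adipoq, Plin1 and Lep were near 0. Their part in the results was not tested.

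The regions before the 2 members of the chromosome 9 cluster that changed and had a RefSeq window (GRCm38.p6) are shown first, because Apoa4 had the largest response of the 10 genes and Apoa5 differed between the diets. Each window runs from 250 bases before to 50 bases after the RefSeq start of the gene, on the strand of the gene. The Apoa4 window is chr9:46240594-46240893 (plus strand), and its RefSeq start lies 148 bases downstream of the start in the GENCODE annotation. The Apoa5 window is chr9:46268383-46268682 (plus strand), with the same start in both annotations. The Apoc2 window, chr7:19677892-19678191 (minus strand), is shown because it was the only one of the members' windows to hold a DR1, the element of nuclear receptors such as HNF4A and PPARA, whose 13 bases are in capitals.
Apoa4: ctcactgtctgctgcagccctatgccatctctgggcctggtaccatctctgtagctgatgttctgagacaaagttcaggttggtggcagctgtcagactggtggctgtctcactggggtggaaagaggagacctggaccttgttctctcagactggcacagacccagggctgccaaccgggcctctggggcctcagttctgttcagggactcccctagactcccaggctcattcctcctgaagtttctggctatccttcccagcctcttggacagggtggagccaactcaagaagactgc
Apoa5: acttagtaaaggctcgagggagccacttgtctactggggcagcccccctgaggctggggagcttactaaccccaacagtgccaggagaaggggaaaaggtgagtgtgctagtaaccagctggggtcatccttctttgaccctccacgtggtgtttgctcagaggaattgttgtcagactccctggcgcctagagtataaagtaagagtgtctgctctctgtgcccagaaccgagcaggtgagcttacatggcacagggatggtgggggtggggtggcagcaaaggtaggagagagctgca
Apoc2: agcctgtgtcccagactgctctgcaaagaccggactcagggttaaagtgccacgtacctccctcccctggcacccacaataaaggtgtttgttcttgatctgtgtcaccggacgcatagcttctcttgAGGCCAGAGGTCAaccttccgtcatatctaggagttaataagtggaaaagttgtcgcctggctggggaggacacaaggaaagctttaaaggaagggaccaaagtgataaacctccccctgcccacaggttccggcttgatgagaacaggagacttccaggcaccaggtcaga

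RefSeq windows were given for 8 of the 10 members, 12 windows in all. Both strands were searched for TGACGTCA (the full cyclic AMP response element, CRE), TGACGT (its partial form, which the full form contains), 2 copies of AGGTCA with 1 base between them and at most 1 mismatch (DR1), CAAAGTCCA (HNF4A core) and TGTTTAC (forkhead). Of 32851 promoter windows of this length, 1.79% held a full CRE, 7.51% a partial CRE, 0.554% a DR1, 0.475% the HNF4A core and 3.65% the forkhead motif. Among the members a match was found in Mttp (partial CRE), Apoc2 (DR1), Apoa2 and 1 of the 3 Apoe windows (forkhead). The Mttp match, chr3:138143442-138143447, lies next to the annotated start of Trmt10a, at 138143448 on the opposite strand. That window thus covers the start of Trmt10a as well. None of these motifs occurred in the Apoa4, Apoa5, Apoa1 or Apob windows. The stretches around the matches in Mttp (chr3:138143422-138143467, minus strand, in a window whose RefSeq start lies 1550 bases downstream of the GENCODE one) and Apoa2 (chr1:171224957-171225003, plus strand) were as follows, with the match in capitals and 20 bases on each side.
Mttp: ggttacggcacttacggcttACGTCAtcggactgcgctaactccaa
Apoa2: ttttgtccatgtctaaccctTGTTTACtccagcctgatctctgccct

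Lipoprotein mRNA was abundant in every group. The 10 genes together took 4.59% ± 0.259 of all counts for CD fed, 5.47% ± 0.311 for CD fast, 4.50% ± 0.341 for HFD fed and 4.98% ± 0.102 for HFD fast (SD, n = 4). Levels were compared between genes only as TPM, that is per length of annotated exon. Apoa2, Apoe and Apoa1 led in all 4 groups, at 23750.1, 19869 and 17714 TPM in CD fed livers, and the libraries of Apoa2 overlapped those of Apoe there and those of Apoe overlapped those of Apoa1. Apoc1 followed at 10912 TPM and Apoc3 at 3572 TPM, each apart from its neighbours in CD fed livers. Apoa5 (1763 TPM) and Apob (1321 TPM) overlapped, as did Apoa4 (713 TPM) and Apoc2 (651 TPM), and Mttp was the lowest at 169 TPM.

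The place of Apoa4 moved most. It ranked 8 of 10 for CD fed and 9 of 10 for HFD fed, 4 for CD fast (9249 TPM, range 2470 to 14571, overlapping Apoc1) and 5 for HFD fast (4087 TPM, range 1779 to 7053, overlapping Apoc3). With the length of the longest transcript in place of all exons, Apoe (24876 TPM) stood above Apoa2 (20300.3 TPM) in CD fed livers and in the other groups too, and in CD fast Apoc1 (10239 TPM) stood above Apoa4 (7631 TPM), which then ranked 5, so both orders depend on the length used.

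**Figure D1:**
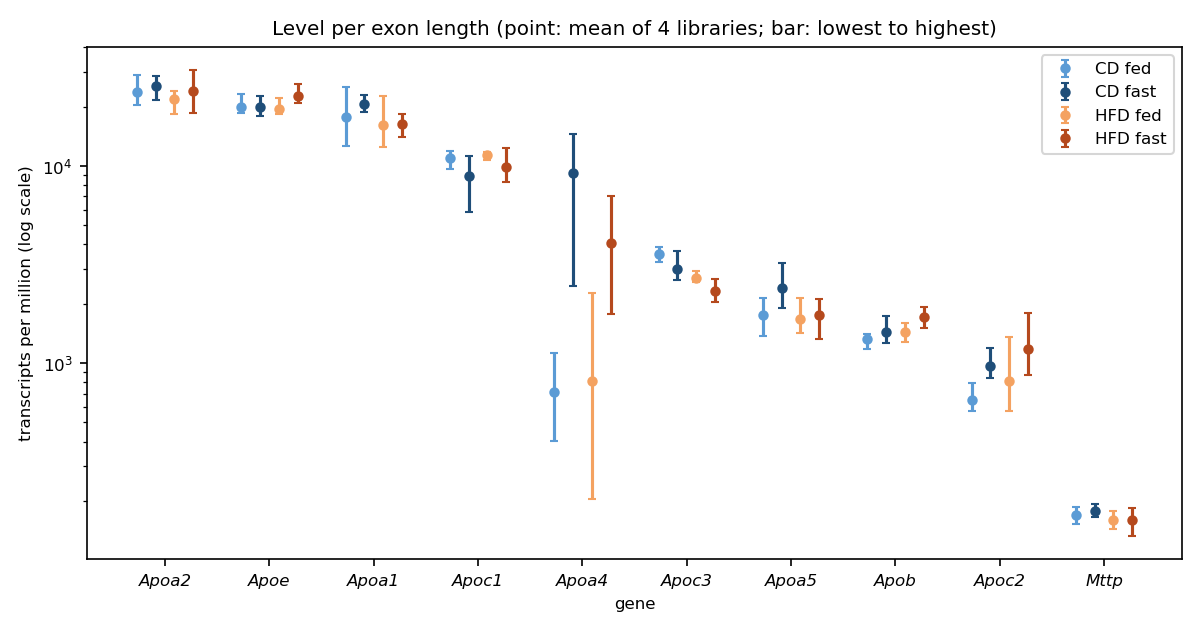
Level of each member per exon length, in TPM on a log axis; points are means of 4 libraries and bars run from the lowest to the highest library. Apoa2, Apoe and Apoa1 lead in all groups, Mttp is lowest, and Apoa4 moves from rank 8 for CD fed to rank 4 for CD fast (9 and 5 with the length of the longest transcript).

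Fasting on the control diet changed 1 of the 10 members. Apoa4, whose protein is a lipid-binding apolipoprotein made by intestine and liver, rose; no member fell. Of all genes tested 25.2% were called in this comparison, 13.7% as higher and 11.5% as lower, so the share of members called, 1 of 10, was not above that of genes at large. The median log2 fold change of the members was 0.15, against -0.01 over all genes.

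Apoa4 (ENSMUSG00000032080, chromosome 9, 46240696 to 46243459, plus strand) had 826, 297, 601 and 398 CPM in the CD fed libraries 1 to 4. In CD fast it had 8093, 10954, 1937 and 7297 CPM. Every fasted library was above every fed one, although CD fast replicate 3 was far below the other fasted livers. The means were 531 ± 234 and 7070.4 ± 3765 CPM, and the fitted rise was 3.74 (SE 0.73, 95% interval 2.18 to 5.30, adjusted p = 0.00205), which is 13.3-fold. It was called in each of the 16 fits with 1 library omitted, at adjusted p between 0.000269 and 0.00908.

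On the high-fat diet Apoa4 had 188, 147, 375 and 1522 CPM in fed libraries. The HFD fast libraries had 3049, 1253, 2055 and 4234 CPM. HFD fed replicate 4 lay above HFD fast replicate 2, so the groups overlapped, and the other 3 fed libraries were below all fasted ones. The difference was 2.25 (SE 0.69, 95% interval 0.78 to 3.71) with adjusted p = 0.0543, just above the threshold. Without HFD fed replicate 4 it was 3.48 (adjusted p = 0.00438), and it was also called without CD fast replicate 3 (adjusted p = 0.0427) or HFD fast replicate 2 (adjusted p = 0.0481). Over the 16 fits with 1 library left out the adjusted p ran up to 0.144.

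No member was called for fasting on the high-fat diet, where 8.86% of genes were called, 4.78% as higher and 4.07% as lower. The unadjusted p was below 0.05 for 2 members, Apoa4 and Apoc3, and for 3864 of the 15075 genes; DESeq2 called both and limma-voom called Apoa4. The interaction for Apoa4 was -1.49 (SE 0.94, 95% interval -3.48 to 0.50, adjusted p = 0.39). A response that differs between diets was therefore not shown. Without HFD fed replicate 4 the interaction was -0.25. No member was called for the interaction, against 2.59% of all genes (1.23% above and 1.36% below 0), none had an unadjusted p below 0.05, and DESeq2 and limma-voom called none.

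**Figure D2:**
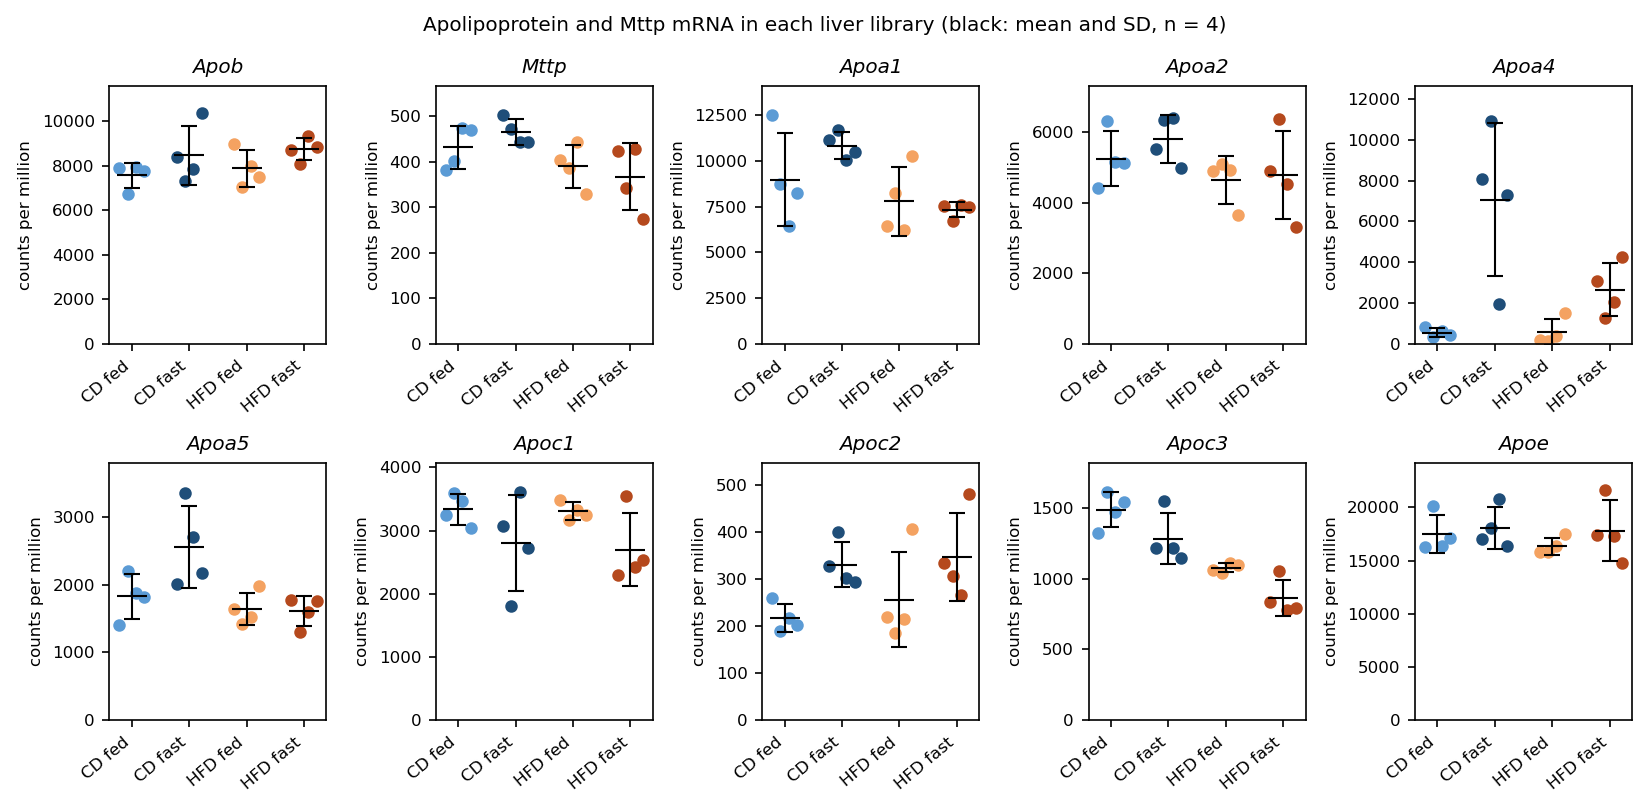
CPM of each member in every library, by group; points from left to right are replicates 1 to 4, black marks are the mean and SD (n = 4), and each axis starts at 0, where the SD bar of Apoa4 in HFD fed ends. Apoa4 runs from 147 CPM in a fed to 10954 in a fasted liver, Apoc3 is lower on the high-fat diet, and Apob and Apoe overlap across all groups.

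Apoc2 and Apoa5 act on lipoprotein lipase, APOC2 as its required cofactor and APOA5 as a promoter of its action. Apoc2 (chromosome 7, minus strand) had 259.6, 189.9, 217 and 203 CPM in the CD fed group and 328, 399.9, 302 and 294 CPM in CD fast. All fasted libraries were above all fed ones. The estimate was 0.61 (SE 0.23, 95% interval 0.13 to 1.09) and missed the threshold at adjusted p = 0.0605. DESeq2 gave adjusted p = 0.0309, a fit of only the 2 groups 0.0112, and leaving out HFD fed replicate 4 or HFD fast replicate 4 gave 0.0149 and 0.0396. It was not called in the other 14 fits with a library left out, where the adjusted p reached 0.159.

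In the high-fat diet groups Apoc2 had 220.4, 185, 215 and 406 CPM fed and 335, 307, 266 and 483 CPM fasted. HFD fed replicate 4, with 406 CPM, was above 3 of the 4 fasted libraries. The difference was 0.44 (SE 0.23, adjusted p = 0.24), and 0.75 (adjusted p = 0.0206) without that library. Diet comparisons for Apoc2 gave 0.24 in fed and 0.07 in fasted livers (adjusted p = 0.57 and 0.878).

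Apoa5 (chromosome 9, plus strand) had 1403, 2209, 1886 and 1819 CPM in the CD fed group and 2017, 3362, 2708 and 2172 CPM in CD fast. CD fed replicate 2 lay above 2 of the fasted livers. The estimate was 0.49 (SE 0.18, adjusted p = 0.0543), and DESeq2 called it at 0.0227. It was called in 5 of the 16 fits with 1 library left out, namely without replicate 1 or 4 of CD fast, 2 of CD fed, 2 of HFD fast or 4 of HFD fed, where the value was 0.032 to 0.0487. Apoa4 and Apoc2 were the members, 2 of 10, whose CD fast and CD fed libraries did not overlap, against 25.4% of all genes. For fasting on the high-fat diet none of the members was without overlap, against 16.7%.

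The high-fat diet lowered Apoc3 in both feeding states and Apoa5 in fasted livers, and raised no member. In fed livers 1 of the 10 was called and 7.5% of all genes were, 3.28% as higher and 4.22% as lower. In fasted livers 2 of the 10 were called, both lower, against 7.7% of genes, 3.05% higher and 4.65% lower. The members' median was -0.12 in fed and -0.31 in fasted livers, and the median over all genes was 0.01 in both. Without overlap between the diets were 1 member in fed livers (Apoc3), where 15.7% of genes were, and 4 in fasted livers (Apoa1, Apoa5, Apoc3 and Mttp), where 14% were.

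APOC3 restrains lipoprotein lipase and the hepatic uptake of remnants. Apoc3 (ENSMUSG00000032081, chromosome 9, 46232933 to 46235636, minus strand) had 1327, 1614, 1476 and 1544 CPM in the CD fed group and 1066, 1039.6, 1110.3 and 1099.9 CPM in HFD fed. It had 1217, 1552, 1215 and 1151 CPM in CD fast and 835, 1054, 776 and 790.1 CPM in HFD fast. In each feeding state every high-fat library was below every control library.

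The change in Apoc3 was -0.47 in fed (SE 0.12, 95% interval -0.71 to -0.22, adjusted p = 0.0257) and -0.57 in fasted livers (SE 0.12, 95% interval -0.82 to -0.32, adjusted p = 0.0109), 1.38-fold and 1.49-fold lower. In fasted livers it was called in all 16 fits with 1 library left out. In fed livers it was called in 11, and the adjusted p was 0.0573 to 0.0843 without CD fed replicate 2 or 4 or HFD fed replicate 1, 2 or 3. When only the 2 fasted groups were fitted the adjusted p was 0.0754. Fasting gave -0.22 (adjusted p = 0.193) on the control and -0.32 (adjusted p = 0.0994) on the high-fat diet. The last was called by DESeq2 (adjusted p = 0.0403) and without HFD fast replicate 2 (adjusted p = 0.0223).

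Apoa5 in fasted livers was 2565 ± 608 CPM on the control diet and, with 1774, 1298, 1597 and 1764 CPM, 1608 ± 222 on the high-fat diet. All HFD fast libraries were below all CD fast ones. The change was -0.67 (SE 0.18, 95% interval -1.05 to -0.30, adjusted p = 0.0309), or 1.59-fold lower. In the fits without replicate 2 or 3 of CD fast, or replicate 2, 3 or 4 of HFD fast, it was no longer called (adjusted p = 0.0577 to 0.0861), nor was it with only the fasted groups (0.0898) or total count scaling (0.0712). In HFD fed livers Apoa5 had 1645, 1419, 1529.6 and 1981 CPM, and the diets differed by -0.15 there (adjusted p = 0.652). The interaction was -0.52 (SE 0.25, adjusted p = 0.257), so a diet effect that depends on feeding state was not shown.

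**Figure D3:**
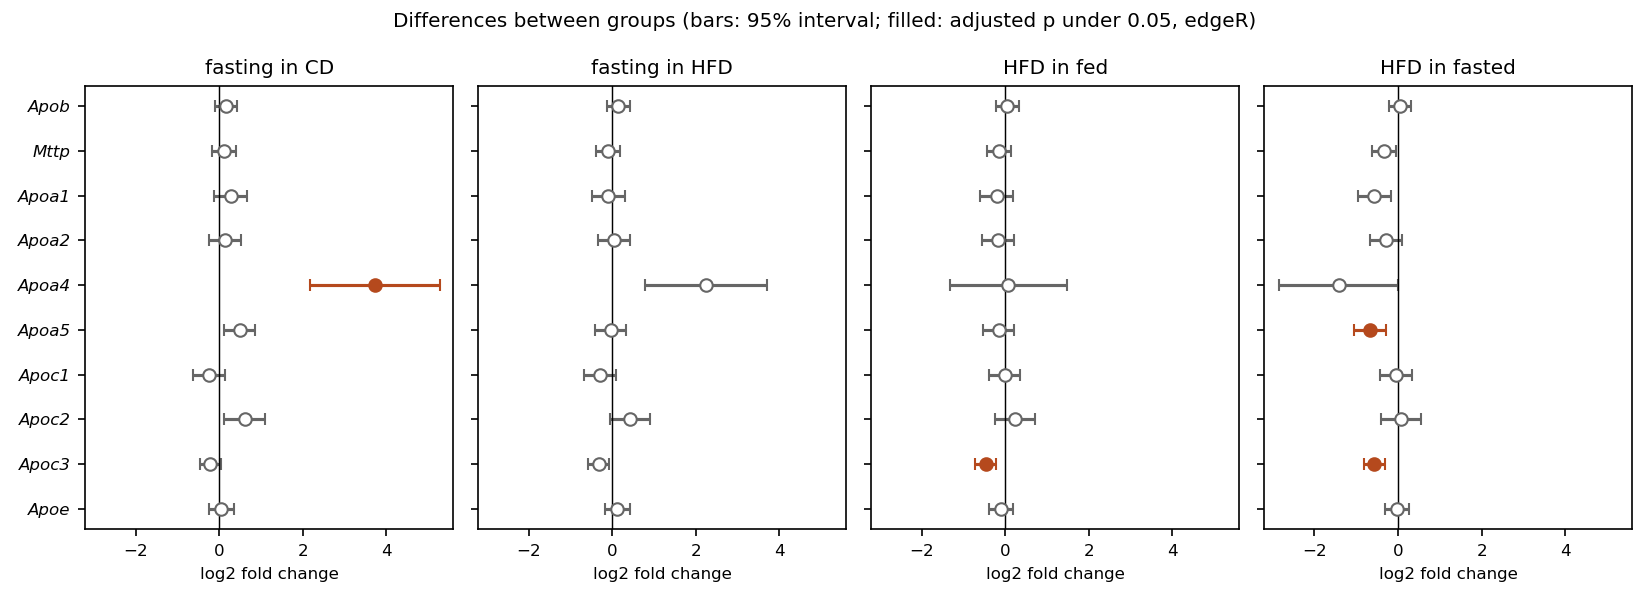
Log2 fold change of each member in the 4 comparisons, with 95% intervals from edgeR; filled points have an adjusted p below 0.05. Filled points are Apoa4 for fasting on the control diet, Apoc3 for the diet in fed livers, and Apoc3 and Apoa5 for the diet in fasted livers.

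The HDL genes Apoa1 and Apoa2 were not called in any comparison. Apoa1 had 12501, 8764, 6439 and 8223 CPM for CD fed, 11156, 11698, 10045 and 10499 for CD fast, 6451, 8248, 6229 and 10284 for HFD fed and 7546, 6739.8, 7581 and 7504 for HFD fast. Fed libraries were widely spread on both diets and fasted libraries were close together, with all HFD fast below all CD fast. For the diet in fasted livers the estimate was -0.56 (SE 0.19, 95% interval -0.97 to -0.16, adjusted p = 0.0788). DESeq2 called it (adjusted p = 0.0205), as did the fit without CD fed replicate 1 (adjusted p = 0.0446). The other 15 fits with a library left out did not, with adjusted p up to 0.144, and total count scaling gave 0.167. Apoa2 ranged from 3311 CPM in HFD fast to 6390.0 in CD fast, its group means were 4644 to 5807 CPM, and its 4 pairwise estimates lay between -0.28 and 0.15.

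The VLDL genes Apob and Mttp were not called either. Apob (chromosome 12, plus strand), the backbone of the particle, averaged 7569 ± 567 CPM for CD fed, 8477 ± 1324 for CD fast, 7875 ± 835 for HFD fed and 8738 ± 502 for HFD fast. Its libraries overlapped in all 4 comparisons. The 95% intervals of its log2 fold change were -0.11 to 0.43 and -0.12 to 0.42 for fasting, on the control and the high-fat diet, and -0.21 to 0.33 and -0.23 to 0.31 for the diet, in fed and fasted livers.

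Mttp (chromosome 3, minus strand), the lipid transfer protein, had 503, 472, 444 and 444 CPM in CD fast and 423, 343, 427 and 273 in HFD fast. All high-fat libraries were lower, yet the estimate of -0.34 (SE 0.13, 95% interval -0.63 to -0.06) had an adjusted p = 0.12. In fed livers the means were 431 ± 47.5 and 389.9 ± 47.2 CPM, with overlap.

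Apoe and Apoc1, which share a cluster with Apoc2, had intervals that include 0 in every comparison. Apoe, the receptor ligand, had group means of 16358 to 18078 CPM, and estimates between -0.09 and 0.12 with adjusted p of at least 0.623. Apoc1 had 3074, 1807, 3617 and 2724 CPM for CD fast and 2298, 3547, 2421 and 2533 for HFD fast, against 3033 to 3600.5 for CD fed and 3160.4 to 3489 for HFD fed. Its fasted livers were more spread than its fed ones, and its estimates for fasting were -0.25 and -0.29 (adjusted p = 0.327 and 0.324).

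Spread between libraries of a group differed among the members. Over the 10 members the median absolute departure from the group mean was largest for HFD fast replicate 2 (0.298 on the log2 scale), followed by HFD fed replicate 4 (0.26). The residual SD on the log2 scale was 0.15 for Apob, 0.15 for Apoc3 and 0.16 for Apoe, near the median of 0.14 over the 5340 genes with at least 1000 counts on average. It was 0.34 for Apoc2 and 1.06 for Apoa4, larger than for 91.3% and 99.3% of those genes. HFD fed replicate 4 departed from its group mean by 2.10 for Apoa4, 0.73 for Apoc2, 0.43 for Apoa1, 0.28 for Apoa5, -0.34 for Apoa2 and -0.24 for Mttp. In HFD fast replicate 4, too, Apoa4 and Apoc2 were the highest and Apoa2 and Mttp the lowest of their group.

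**Figure D4:**
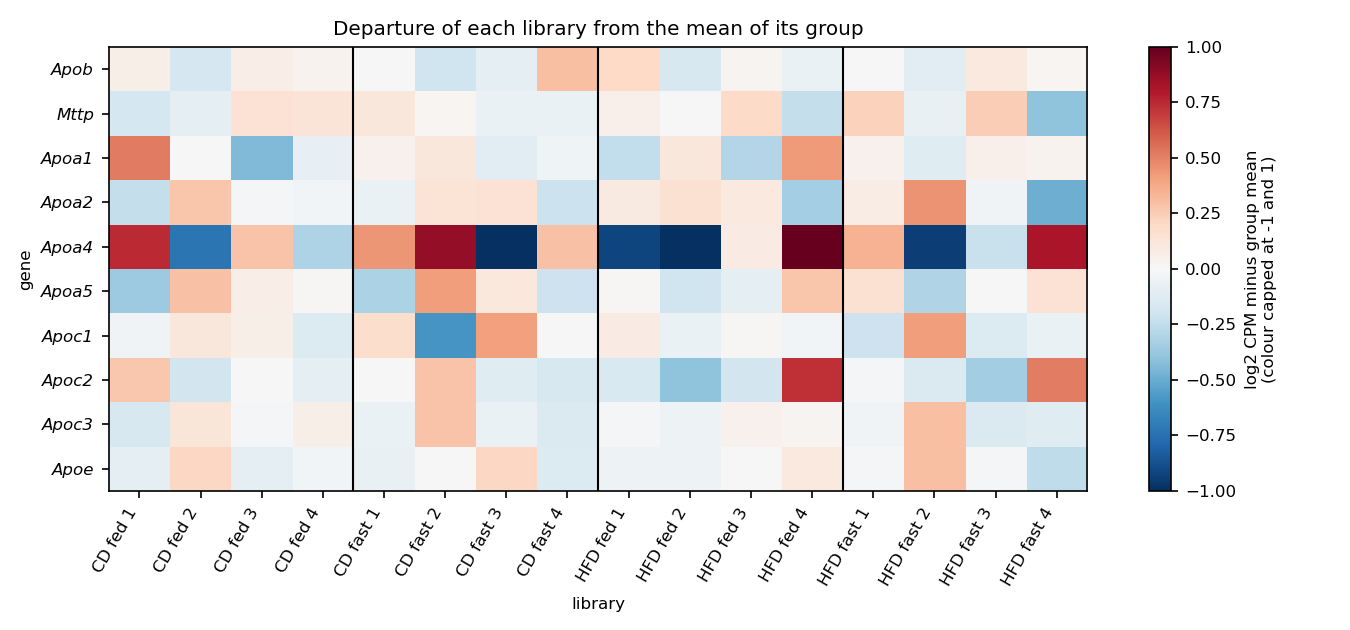
Log2 CPM of each member in each library minus the mean of its group, as colour, limited to 1 on either side, with black lines between groups. Apoa4 varies most; HFD fed replicate 4 is high in Apoa4 (2.10) and Apoc2 (0.73) and low in Apoa2 (-0.34).

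By the closeness of their levels over the 16 libraries (root mean square difference of log2 CPM after centring each gene, among 10994 genes with at least 100 counts on average), the genes most like Apoa4 were Cntnap1 (0.73), Agap2 (0.79) and Cgref1 (0.89). Cntnap1 averaged 2.29, 44.1, 4.12 and 33.6 CPM in CD fed, CD fast, HFD fed and HFD fast. Apoa4 itself had an SD of 1.96 over the libraries. Closest to Apoc3 (SD 0.33) were Alkbh7 (0.12), Uqcr11 (0.12) and Romo1 (0.14), whose proteins are mitochondrial, and among the closest to Apoa5 (SD 0.36) were Fbp1 (0.17) and Map7 (0.19). Fbp1, an enzyme of gluconeogenesis, averaged 935, 1345, 876 and 973 CPM in the same order.

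An antisense gene overlaps exons of Apoa4. Gm10680 (chromosome 9, 46242621 to 46243529, minus strand) had 94, 37, 202 and 64 counts for CD fed and 1475, 864, 143 and 823 for CD fast. In HFD fed it had 3, 0, 4 and 11 counts, and in HFD fast 23, 11, 123 and 74. In each feeding state every high-fat library had fewer counts of it than every control library. As a share of Apoa4 counts it was 0.207% to 0.619% for CD fed, 0.145% to 0.43% for CD fast, at most 0.0338% for HFD fed and 0.0164% to 0.125% for HFD fast, so that every high-fat library was below every control library.

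Gm10680 changed by 3.41 (SE 0.73, adjusted p = 0.00361) with fasting on the control diet and by -3.99 (SE 0.76, adjusted p = 0.00816) with the diet in fasted livers, where Apoa4 itself gave -1.42 (SE 0.67, adjusted p = 0.196). Both were called in all 16 fits with 1 library left out. Fasting on the high-fat diet gave 3.63 (SE 1.08, adjusted p = 0.0473), called in 4 of the 16 fits (adjusted p up to 0.144, without HFD fast replicate 3), and the diet in fed livers -4.21 (SE 1.04, adjusted p = 0.0242), called in 12 (adjusted p up to 0.0696, without HFD fed replicate 3). Gm43691, antisense to Mttp, had 3 to 15 counts in the 8 control diet libraries and 0 or 1 in the 8 high-fat libraries. After these values were known, 50 pairs were examined, each a non-coding gene lying opposite a gene of more than 10000 mean counts. The non-coding gene had more than 3 mean counts and under 2% of its partner. By these limits the pairs include Gm10680 with Apoa4 and Gm43691 with Mttp, which prompted the check. It is therefore not independent of them, and Gm43691 passed the floor only through its control diet libraries. The median over the pairs was 6.09 to 13.7 counts per 10000 counts of the partner in the 8 control diet libraries. In the 8 high-fat libraries it was 1.77 to 4.59, without overlap. Of the 50 pairs 39 had a lower mean share on the high-fat diet, 18 of them without overlap between the diets. The antisense share of the libraries thus moved with the diet, and its part in the diet comparisons, those of Gm10680, Apoc3 and Apoa5 among them, was not tested. The labels used here name no batch of library preparation, and whether preparation moved with the diet was not tested.

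**Figure D5:**
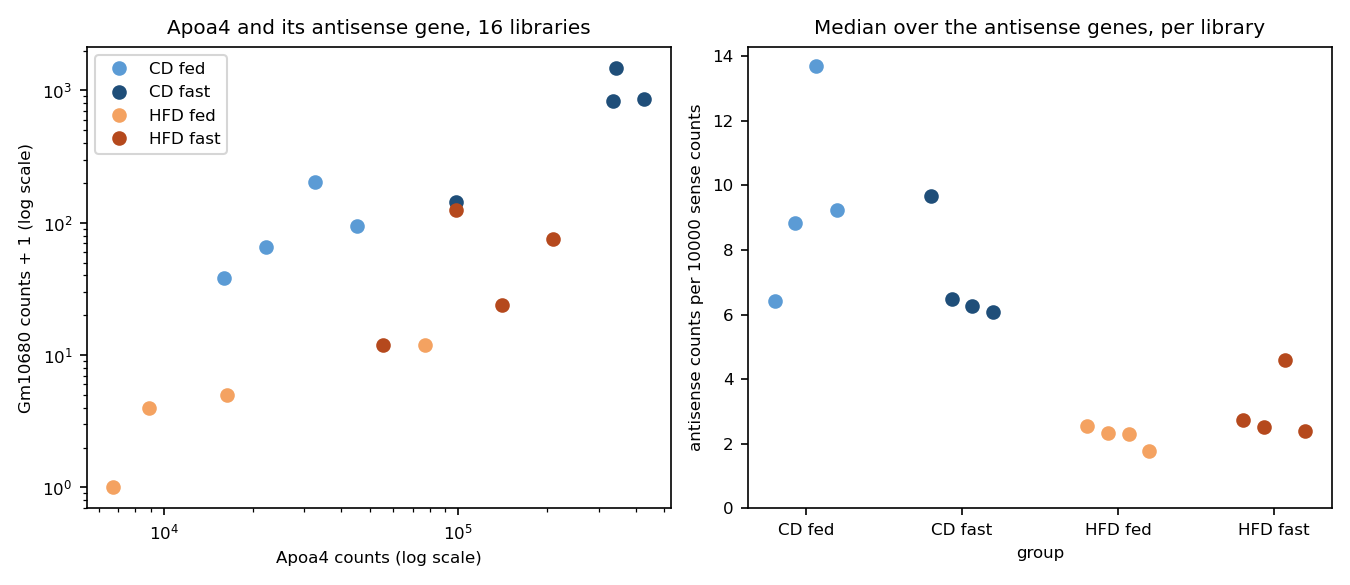
Left, counts of Gm10680 (plus 1) against counts of Apoa4 in 16 libraries on log axes. Right, antisense counts per 10000 counts of the sense partner in each library, as the median over 50 pairs. The high-fat libraries lie at 1.77 to 4.59 and the control diet libraries at 6.09 to 13.7.

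Apoc4, which lies between Apoc2 and Apoc1 on chromosome 7, rose from 389 ± 32.8 CPM in CD fed to 557 ± 91.2 CPM after fasting on this diet (0.52, adjusted p = 0.00493) and was lower with the high-fat diet in fasted livers (-0.54, adjusted p = 0.0142). On the high-fat diet it had 367 ± 5.80 CPM fed and 384 ± 54.4 CPM fasted. Both calls held in all 16 fits with 1 library left out. The interaction for Apoc4 was -0.45 (SE 0.16, adjusted p = 0.142), so a fasting response that differs between the diets was not shown. Of the 14 tested apolipoprotein genes outside the 10, fasting raised 2 and lowered 1 on the control diet and raised 2 on the high-fat diet, and the diet lowered 1 in fed and 2 in fasted livers; of all genes 25.2%, 8.86%, 7.5% and 7.7% were called in these comparisons. Apon rose with fasting on both diets (0.45, adjusted p = 0.003, and 0.35, adjusted p = 0.0332), Apol7a rose on the high-fat diet (0.89, adjusted p = 0.0173), and Apom, an HDL apolipoprotein, was lower with the diet in fasted livers (-0.66, adjusted p = 0.021). When single libraries were left out, these calls held less often: 10 of 16 for Apon on the high-fat diet (highest adjusted p = 0.0987 without HFD fast replicate 3), 15 of 16 for Apol7a (highest adjusted p = 0.0546 without HFD fed replicate 1), 13 of 16 for Apom (highest adjusted p = 0.0646 without HFD fast replicate 4).

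In the list of lipoprotein assembly and ER export, 3 of 34 genes rose and 5 fell with fasting on the control diet, and 2 rose and 1 fell on the high-fat diet, against 25.2% and 8.86% of all genes called. P4hb, the protein disulfide isomerase that forms the MTP complex with MTTP, rose with fasting on the high-fat diet (0.44, adjusted p = 0.0107), while the estimate for Mttp was -0.09. The diet lowered 4 of 34 in fed livers, where 7.5% of all genes were called, 4.22% as lower. In fasted livers it lowered 2 of 34, against 7.7% of all genes called, 4.65% as lower. Those in fed livers were led by the chaperone genes Hspa5 (-1.20, adjusted p = 0.0123) and Hsp90b1 (-0.75, adjusted p = 0.00865). Those in fasted livers were Tm6sf2, which affects VLDL lipidation (-0.86, adjusted p = 0.0106), and the triglyceride synthesis gene Dgat1 (-0.49, adjusted p = 0.0165). With fasting on the control diet Dgat1 rose (0.65, called in all 16 fits with 1 library left out). The hydrolase genes Aadac (-0.79, adjusted p = 0.0014) and Ces1g (-1.58, adjusted p = 0.00837) fell with fasting on the control diet, and Aadac fell on the high-fat diet too (-0.77, adjusted p = 0.00628). Of the 6 genes of Apob mRNA editing, the deaminase gene Apobec1 fell with fasting on the control diet (-0.64, adjusted p = 0.0014) and Rbm47, its cofactor, rose with the diet in fasted livers (0.32, adjusted p = 0.0317). With each library omitted in turn, the less stable calls were Dgat1 and Rbm47 with the diet in fasted livers. Dgat1 held in 14 of 16 fits (highest adjusted p = 0.0558 without HFD fast replicate 3). Rbm47 held in 11 of 16 (highest adjusted p = 0.0917 without HFD fast replicate 3).

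Among 13 genes of plasma lipases and remodelling, fasting on the control diet, which changed 25.2% of all genes, raised 1 and lowered 2, Pltp, the phospholipid transfer protein gene (-1.07, adjusted p = 0.00232), and Angptl8, an inhibitor of lipoprotein lipase (4.01-fold lower, adjusted p = 0.0121). The diet lowered Pltp in fed livers (-1.93, adjusted p = 0.000238). Among 17 tested genes of lipoprotein receptors and uptake, fasting on the control diet raised 2 and lowered 4, and the fatty acid transporter gene Cd36 was among those that rose (1.26, adjusted p = 0.00792). The diet raised 3 and lowered 1 in each feeding state, against 7.5% of all genes called in fed and 7.7% in fasted livers. The largest changes were in Vldlr (1.72, adjusted p = 0.0183) and Cd36 (1.18, adjusted p = 0.0308) in fed livers. In fasted livers they were in Sdc1 (-0.73, adjusted p = 0.00805) and Mylip (0.74, adjusted p = 0.00777). Mylip rose with the diet in fed livers too (0.89), and Sdc1 rose with fasting on the control diet (0.92). These 2 rises were called in all 16 fits with 1 library left out. Of 10 genes of sterol and HDL export, 2 rose and 2 fell with fasting on the control diet, among them the phospholipid exporter gene Abcb4 (1.01, adjusted p = 4.95e-05) and the lysosomal cholesterol transporter gene Npc1 (0.39, adjusted p = 0.0486), and Abcb4 also rose with the diet in fed livers (0.49, adjusted p = 0.0238). Not all of these calls held when a library was left out: 15 of 16 for Vldlr (highest adjusted p = 0.0513 without CD fed replicate 1), 10 of 16 for Cd36 with the diet in fed livers (highest adjusted p = 0.111 without HFD fed replicate 3), 3 of 16 for Npc1 (highest adjusted p = 0.176 without CD fast replicate 2), 12 of 16 for Abcb4 in that same comparison (highest adjusted p = 0.0773 without HFD fed replicate 3).

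Over all lists in turn, the median log2 fold change lay between -0.23 (plasma lipases) and 0.03 (other apolipoproteins) for fasting on the control diet, and between -0.04 and 0.19 for the same on the high-fat diet, against -0.01 and 0.01 over all genes. For the diet it lay between -0.28 (plasma lipases) and 0.16 (sterol and HDL export) in fed livers, and between -0.11 and 0.23 in fasted livers, against 0.01 in both over all genes.

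Among 39 transcription factor genes known to act on apolipoprotein genes, fasting raised 4 and lowered 3 on the control diet and raised 1 and lowered 4 on the high-fat diet, where 25.2% and 8.86% of all genes were called. Srebf1, a driver of lipid synthesis, fell in both (-1.85, adjusted p = 2.79e-05, and -1.06, adjusted p = 0.00624) and was higher with the diet in fasted livers (1.21, adjusted p = 0.00512). The corepressor gene Nr0b2 fell on the control diet (-1.50, adjusted p = 0.0436), and Pparg rose on the high-fat diet (0.95, adjusted p = 0.0156). The diet raised Foxa3 in fed livers (0.47, adjusted p = 0.0468) and lowered Nr1h2 in fasted livers (-0.34, adjusted p = 0.0415). Calls that depended on single libraries held in 5 of 16 for Nr0b2 (highest adjusted p = 0.109 without CD fast replicate 4), 15 of 16 for Pparg (highest adjusted p = 0.0525 without HFD fed replicate 1), 5 of 16 for Foxa3 (highest adjusted p = 0.121 without HFD fed replicate 2), 8 of 16 for Nr1h2 (highest adjusted p = 0.11 without CD fast replicate 2). Creb3l3, known as an activator of Apoa4, and Hnf4a were named after their values were seen. Creb3l3 rose on the control diet (0.79, adjusted p = 0.000603) and gave 0.34 on the high-fat diet (adjusted p = 0.122), and Hnf4a gave 0.02 (adjusted p = 0.921) on the control diet and fell on the high-fat diet (-0.55, adjusted p = 0.00601).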

How the data were processed

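Poly(A) RNA of mouse liver was sequenced by the authors in 16 libraries as 100-base paired ends. Reads were aligned to Ensembl GRCm38 with TopHat2 2.0.11 set for first-strand libraries, after CASAVA 1.8.4 per the submitters' processing notes, and gene counts were made with featureCounts. Whether the counting used strand is not given in the sources used here, so reads of Apoa4 and Mttp and of the genes opposite them may have been split. The deposited values are raw counts per gene.

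The deposited counts were filtered (filterByExpr), scaled by TMM and tested with edgeR 4.0.16 in R 4.3.3 over all 16 libraries, with 1 coefficient per group (12 residual degrees of freedom and a common CV of 19.2%), and p-values were adjusted over all 15075 genes tested with a threshold of 0.05. TPM used exon lengths of the GENCODE vM21 annotation (GRCm38). The test was checked on simulated counts. DESeq2 1.42.0, limma 3.58.1 (voom), other scalings and filters, a replicate block and leaving out each library were the alternatives. The lowest chi-square per gene between libraries of a group was 37.5, where 1 would be sampling noise. Figures were drawn with matplotlib 3.10.9.

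The members and gene lists were chosen with earlier results of these data known. Named outside the members are genes that overlap or lie between them, the 2 called genes of each list and comparison with the largest change (at least 100 counts on average), and the 3 genes nearest in pattern to the 3 members with the strongest difference among groups. Creb3l3, Hnf4a and the cell type markers named were chosen outside this rule, after their values were seen. Of the genes this rule names, 2 are not reported here, although totals over the lists include them. Sequences are from RefSeq (GRCm38.p6).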

Additional observations from a re-analysis of the deposited data

Results flagged for a closer look

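In 6 of the 40 sets of 4 libraries (10 members in 4 groups), 1 library stood far from the other 3 in CPM by Dixon's test, which marks about 1 in 20 sets by chance. HFD fed replicate 4 accounted for 3 of them, being the highest in Apoa4 (1522 CPM) and Apoc2 (406 CPM) and the lowest in Apoa2 (3636 CPM). The others were Apoa1 in HFD fast (lowest, 6739.8 CPM, replicate 2), Apob in CD fed (lowest, 6727 CPM, replicate 2) and Apoc3 in CD fast (highest, 1552 CPM, replicate 2).

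By the interaction term of the edgeR fit, 1 gene in each list had a response to fasting called as differing between the diets. That was 1 of 6 in the smallest list and 1 of 39 in the largest, against 2.59% of all genes. Of these genes 5 are given here. The difference of the log2 fold changes (high-fat minus control diet) was 0.71 for Apobec1 (adjusted p = 0.0369), 2.19 for Ces1g (adjusted p = 0.0434), 1.64 for Pltp (adjusted p = 0.0163), -0.82 for Abcb4 (adjusted p = 0.0225) and -0.92 for Esrra (adjusted p = 0.0401). With 1 library left out, the adjusted p was above 0.05 in 12 of the 16 fits for Apobec1, 13 for Ces1g, 10 for Esrra, 2 for Abcb4 and 0 for Pltp.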

How the results depend on the processing

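Counts of members called for fasting on the control diet were 3 with DESeq2, and 2 with a filter of 100 counts, with only the groups compared and with a replicate block, against 1 as reported; DESeq2 also called more genes in all (4265 against 3797). The block called Apoc2 as well (adjusted p = 0.0464). For fasting on the high-fat diet they were 2 with DESeq2 and 1 with limma-voom and with a replicate block, against 0, where DESeq2 called 1985 genes in all against 1335. With the block the call was Apoa4 (2.47, adjusted p = 0.0377). For the diet in fasted livers they were 1 with total count scaling and 0 with only the groups compared, against 2, where the calls over all genes went from 1161 to 2101 and 90, and DESeq2 called 3 members and 1967 genes. With 1 library left out the counts ran from 1 to 3 and from 0 to 2 for fasting on the control and the high-fat diet, from 0 to 1 and from 1 to 3 for the diet in fed and fasted livers, and stayed at 0 for the interaction.

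Total count scaling moved the median of all genes to 0.17 for the diet in fasted livers, and its share of called genes that were higher from 39.6% to 88.1%. That share went from 43.8% to 68.8% for the diet in fed livers, from 54.0% to 67.6% and from 54.4% to 44.3% for fasting on the high-fat and the control diet, and from 47.4% to 69.5% for the interaction. No called member changed direction under it. The estimates that changed sign were all of uncalled values. Under total count scaling they were 0.019 for Apoa5 (fasting on the high-fat diet), 0.06 for Apoc1 (diet, fed), 0.10 for Apoc1 and 0.13 for Apoe (diet, fasted), and 0.0803 for Apob and 0.0396 for Apoc1 (interaction). Under upper quartile scaling they were 0.0073 for Apob (interaction), 0.0074 for Apoc1 (diet, fed) and 0.0151 for Apoe (diet, fasted). A filter of 100 counts gave 0.003 for Apob (interaction) and 0.0044 for Apoe (diet, fasted), and limma-voom gave 0.0007 for Apob (interaction) and -0.48 for Apoa4 (diet, fed), which was -0.33 with the replicate block.

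With 1 library left out, estimates that changed sign ran over these ranges, lowest to highest. For fasting on the control diet they were -0.031 to 0.12 for Apoe. For fasting on the high-fat diet they were -0.18 to 0.074 for Apoa1, -0.14 to 0.18 for Apoa2, -0.10 to 0.071 for Apoa5, -0.0001 to 0.20 for Apoe, -0.17 to 0.029 for Mttp. For the diet in fed livers they were -1.16 to 0.39 for Apoa4, -0.013 to 0.11 for Apob, -0.057 to 0.025 for Apoc1, -0.071 to 0.37 for Apoc2. For the diet in fasted livers they were -0.021 to 0.15 for Apob, -0.22 to 0.089 for Apoc1, -0.13 to 0.18 for Apoc2, -0.13 to 0.057 for Apoe. For the interaction they were -0.28 to 0.035 for Apoa2, -0.079 to 0.092 for Apob, -0.21 to 0.10 for Apoc1, -0.37 to 0.14 for Apoc2, -0.044 to 0.15 for Apoe.

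Same-numbered libraries of different groups correlated in their departures from group means by -0.24 to 0.66 (8 of 24 pairs above 0.1). Other-numbered libraries gave -0.37 to 0.39 (18 of 72 above 0.1), so the numbers were not taken to pair the samples. The highest value, 0.66, was that of HFD fast replicate 4 with HFD fed replicate 4. These 2 libraries thus shared a departure, while the tests treat them as independent. The replicate block gave 3948 called genes for fasting on the control diet against 3797. List counts moved by over 1.5 times in 63 of 308 other settings and 136 of 560 fits with 1 library left out. Counts limit little here, since each member had at least 6732 per library; with 4 libraries a group, the spread between them sets the error.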
